A study of Homo sapiens with 4 samples.

Results

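miR-204 and miR-211 are microRNAs (miRNAs) that share a seed, the stretch of bases 2 to 8 through which a miRNA pairs with its target messenger RNAs. They were followed here in LAPC-4 cells, an established line of human prostate cancer cells in which the androgen receptor is present, under rising doses of R1881, a synthetic androgen. The family was represented by 2 of the 455 human miRNA probes on a custom oligonucleotide array. Each human probe had a partner with 2 mismatches and a mouse-named probe that had such a partner too, which gave 8 family probes among 1406 probe names. The members were chosen by their names and seed, and miR-211 was selected on its measured rise over the untreated array, the largest after quantile normalization. Its ratios to that array are therefore a description, and no test was made of them.

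The 4 groups were LAPC-4 cells with no R1881 and with R1881 at 0.1 nM, at 1 nM and at 10 nM, with 1 sample and 1 array each. Cells of every group, the untreated one included, had first spent 24 hours in androgen-free medium with 10% charcoal-stripped serum. How long R1881 acted is not given clearly in the labels. Total RNA of each sample carried the single dye Cy3. There were no replicates, so no value below has an error from repeated samples.

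A miRNA lowers the output of messenger RNAs that carry a match to its seed, and miRNAs with a common seed can act on overlapping sets of messengers. miR-204 and miR-211 are encoded within TRPM3 and TRPM1, genes for related cation channels of cell membranes. miR-204 is known for its abundance in the lens, the retinal pigment epithelium and the choroid plexus. miR-211 is known from pigment cells, where MITF, the master transcription factor of melanocytes, drives TRPM1 and the miRNA within it. Neither is a classical marker of prostate epithelium.

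The mature sequences are shown because they define the family and show how little separates its members. The 5p arms are the products that the older probe names miR-204 and miR-211 refer to, and capitals mark the seed.
hsa-miR-211-5p: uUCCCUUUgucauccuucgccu
hsa-miR-204-5p: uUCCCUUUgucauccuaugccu
Both are 22 bases long and identical at 20 of them (90.9%). Counted from the 5′ end of the mature miRNA, with the base of miR-204 first, they differ by A17U and U18C. The seed UCCCUUU was carried by 2 mature human miRNAs in the RefSeq table, these 2 and no other. Both members were matched in that table by name.

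The opposite arms of the hairpins were less alike. The 3p arms were identical at 15 of 21 bases (71.4%), and the differences U3A and A8C fall within their seeds. No probe name referred to a 3p arm of either miRNA. The precursors are shown with the 5p arm in capitals, to place the measured product within its hairpin.
MIR211: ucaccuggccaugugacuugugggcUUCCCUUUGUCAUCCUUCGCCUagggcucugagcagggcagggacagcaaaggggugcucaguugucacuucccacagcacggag
MIR204: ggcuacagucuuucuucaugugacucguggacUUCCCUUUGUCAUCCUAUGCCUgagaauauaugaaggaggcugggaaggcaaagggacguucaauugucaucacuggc
In the RefSeq annotation of GRCh38.p14 the MIR211 hairpin lies at chr15:31065032-31065141 on the minus strand, within the span of TRPM1. The MIR204 hairpin lies at chr9:70809975-70810084 on the minus strand, within the span of TRPM3. The 5p arm occupies bases 26 to 47 of the first hairpin and bases 33 to 54 of the second.

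Of the 455 human probe names, 355 matched a mature RefSeq name, and the others were not compared. Outside the family, and among those matched, the closest ungapped match to miR-211 was miR-18a-3p with 13 identical bases and a shared run of 6. The closest to miR-204 was miR-135a-5p with 13 identical bases and a shared run of 7. The array holds a probe named miR-18a and a separate one named miR-18a*, and the matching by name did not try star forms. From 0 to 10 nM the star-named probe read 91.5, 107.5, 117 and 137, under the limit defined below on every array. The probe named miR-18a read 150.25, 162.25, 166.25 and 205. Neither was matched to an arm by its probe sequence. Probe sequences were not used here, so the positions of the 2 mismatches in the mismatch probes are unknown.

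Detection was judged on each array against the 95th percentile of the 2-mismatch probes, at intensities of 118, 135.5, 138 and 143.5 from 0 to 10 nM R1881. By that limit 136 human miRNAs were detected on at least 1 array and 319 on none, and from 114 to 129 were detected per array. The median intensity over all probes lay between 83 and 91.5. Epithelial markers fixed for this check were above the limit on at least 1 array for 5 of 8 miRNAs. miR-141, miR-200c, miR-200b and miR-148a were above it on all 4 arrays, and miR-375 on the untreated array alone. miR-200a and miR-429 were under it on every array, at 82.5 to 97.5 and at 69 to 83.5. None of 5 blood miRNAs was above it. Of 5 fibroblast and smooth muscle miRNAs 1 was, miR-214, but not miR-143 and miR-145, and of 3 muscle miRNAs 1 was, miR-206. miR-205 of basal prostate epithelium was under it on every array, at 77 to 82.

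The human miR-211 probe was dim on every array and brighter on each treated array. It read 86 without R1881, 135.75 at 0.1 nM, 129.5 at 1 nM and 164 at 10 nM, in linear intensity units. The untreated array was the lowest, the 10 nM array the highest, and the 2 lower doses lay between them in the opposite order to dose. Among the 455 human probes on the same array, the number dimmer than miR-211 was 115 without R1881 and 336, 325 and 352 at rising dose.

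Only 2 of these 4 values passed the limit. At 10 nM miR-211 stood 20.5 units above it, and at 0.1 nM 0.25 units above it. At 1 nM it lay 8.5 units under the limit, and on the untreated array 31.6 units under it. Without R1881 the probe differed from the median of all 2-mismatch probes, 84.5, by 1.5 units, so its untreated level is a bound and not a measured amount.

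**Figure D1:**
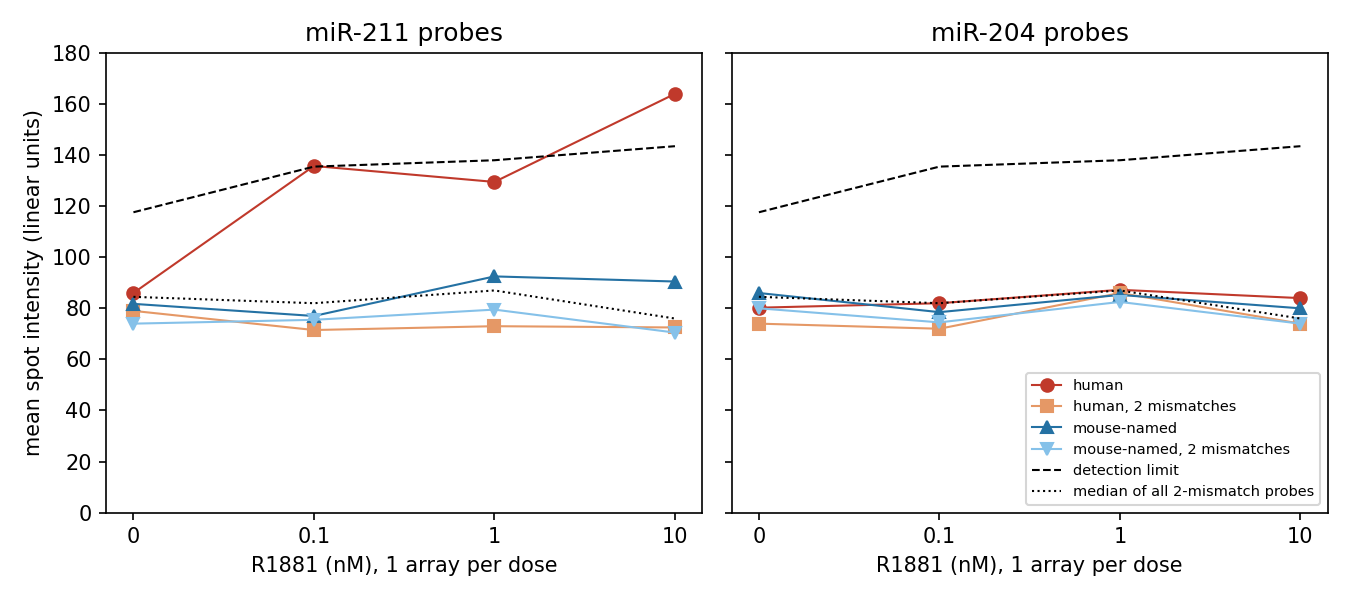
Mean spot intensity (linear units) of the 8 family probes by R1881 dose, with 1 array per dose and no error bars because there are no replicates. The dashed line is the detection limit and the dotted line the median of all 2-mismatch probes. The human miR-211 probe reaches 164 at 10 nM while the other 7 probes stay between 70.5 and 92.5.

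All other family probes stayed near the floor of the array. Over the 4 arrays these 7 probes read between 70.5 and 92.5, and the 2 values of miR-211 were the family's only ones above the limit among 32.

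The 2-mismatch partner of miR-211 did not follow its matched probe. It read 79, 71.5, 73 and 72.5 from 0 to 10 nM, with the highest value on the untreated array. The matched probe divided by its partner gave a quotient of 1.09 without R1881, then of 1.90, 1.77 and 2.26 at rising dose. Over 432 human probes with a usable partner, the median of this quotient was 1.17 at 10 nM and 1.13 without R1881. Among the 130 of these that were detected on at least 1 array, the medians were 2.70 at 10 nM and 2.14 without R1881. The quotient of miR-211 thus stood near that of all human probes without R1881 and below the median of the detected ones at 10 nM, where 82 of the 130 had a higher one.

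The mouse-named miR-211 probe showed no such rise. It read 81.75, 77, 92.5 and 90.5 from 0 to 10 nM, under the limit on all 4 arrays. At 0.1 nM, where the human probe read 135.75, the mouse-named probe had its lowest value. Its own 2-mismatch partner read 74, 75.5, 79.5 and 70.5. The mouse sequence was not used here, and whether a base difference separates the probes was not tested.

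The measured ratios of the human and mouse-named probes lay apart. The mean log2 ratio of the 3 doses to the untreated array was 0.86 for the human miR-211 probe and 0.16 for the mouse-named one, after quantile normalization. The difference of 0.70 ranked first among 69 human probes with a mouse namesake, in which the median size of the difference was 0.094. By size regardless of sign it ranked second, after miR-411, whose difference was −0.78. These ranks are a description that supports nothing further. They rest on the rise for which miR-211 was chosen, on an untreated human value at the mismatch median and on a mouse-named probe under the limit on all 4 arrays. For miR-204 the same difference was 0.20, with means of 0.16 for the human probe and −0.041 for the mouse-named one.

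**Figure D2:**
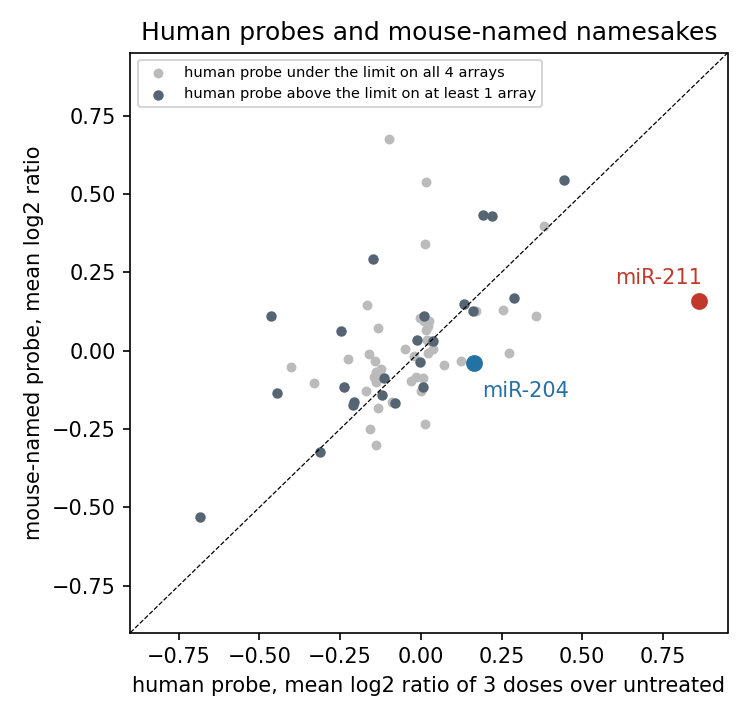
Mean log2 ratio of the 3 R1881 doses over the untreated array for 69 human probes (horizontal axis) and their mouse-named namesakes (vertical axis) after quantile normalization; the dashed line marks equal values. miR-211 lies at 0.86 against 0.16, and miR-204 at 0.16 against −0.041.

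miR-204 was not detected on any array. Its human probe read 80.25, 82, 87.25 and 84 from 0 to 10 nM, with the lowest value on the untreated array and the highest at 1 nM. These values ran from 8 units above the 2-mismatch median, at 10 nM, down to 4.25 units under it, on the untreated array. They were 37.4 to 59.5 units under the detection limit. None of the 16 values of the miR-204 probes passed the limit.

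The partner and namesake of miR-204 lay in the same range. The 2-mismatch partner of the human probe read 74, 72, 86 and 74, and the mouse-named probe 86, 78.5, 85.25 and 80. The matched probe over its partner came to 1.08 on the untreated array and to 1.14, 1.01 and 1.14 at rising dose. At 1 nM the matched probe read 87.25 and its partner 86. All 4 arrays thus give only a bound for miR-204, and its ratios below are measured values of an undetected probe that give no fold of the miRNA.

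The deposited value table of the series gives a level of the family on 1 array only. Each value it lists equalled exactly the mean intensity minus the median of the 604 2-mismatch probes on the same array, and a probe was listed where its intensity was at least 2 times that median. This held for all 802 probe names on each of the 4 arrays. Under that limit, which came to 169, 164, 174 and 152 from 0 to 10 nM, miR-211 has a value of 88 at 10 nM and is blank on the other 3 arrays. miR-204 and both mouse-named probes are blank on all 4.

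The step from blank to listed was shared with other miRNAs. Of the 455 human probes, 37 (8.13%) were listed there at 10 nM and blank on the untreated array, and 1 went the other way. Of the 455, 19 (4.18%) were listed at 10 nM alone. miR-211 held rank 10 among these 19, whose values ran from 76 to 129 with a median of 88. The limit was lower at 10 nM, at 152, against 169 on the untreated array, and its part in these counts was not tested.

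The measured ratio of miR-211 to the untreated array was high at each dose. After background correction by the normexp method and quantile normalization, its log2 ratio was 0.83 at 0.1 nM, 0.74 at 1 nM and 1.01 at 10 nM, the last a measured fold of 2.02. Of the 136 detected human miRNAs, 1 (0.735%) was at least 2-fold higher at 10 nM than untreated after quantile normalization, and that was miR-211. With median scaling and with no scaling there were 3, with cyclic loess, detected-miRNA centring and no background correction 0, and on the deposited intensities 2. With no scaling miR-568 at 1.29 and miR-594 at 1.23 exceeded miR-211 at 1.21. At 1.5-fold, 2 (1.47%) were higher at all 3 doses, miR-211 and miR-568. By dose the 1.5-fold count was 2 (1.47%) at 0.1 nM, 3 (2.21%) at 1 nM and 3 (2.21%) at 10 nM. The count at 10 nM was 40 with median scaling, 42 with no scaling and 30 with neither correction nor scaling. Above the limit at 10 nM and under it untreated were 7 (5.15%), miR-211 among them. The family's place in these counts was set by its choice and supports nothing further.

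Since the untreated value is a bound, the fold that can be stated is smaller, and it only describes the rise for which miR-211 was chosen. Set against the lowest detected human miRNA on the untreated array, the fold of miR-211 was 1.19 or more at 10 nM and 1.06 or more at 0.1 nM, both in the direction of a higher treated level. With no scaling the bounds were 1.56 and 1.21. The bound at 0.1 nM rests on an intensity 0.25 units above the limit, and miR-211 was 5.75 units under the limit from virus and worm probes there. At 1 nM both values were under the limit, so the measured ratio of 0.74 there, and its place past 1.5-fold, rests on an undetected probe and supports no fold. Against the stricter limit of the value table, the bound at 10 nM fell under 1 after quantile normalization, so no fold is given there either.

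**Figure D3:**
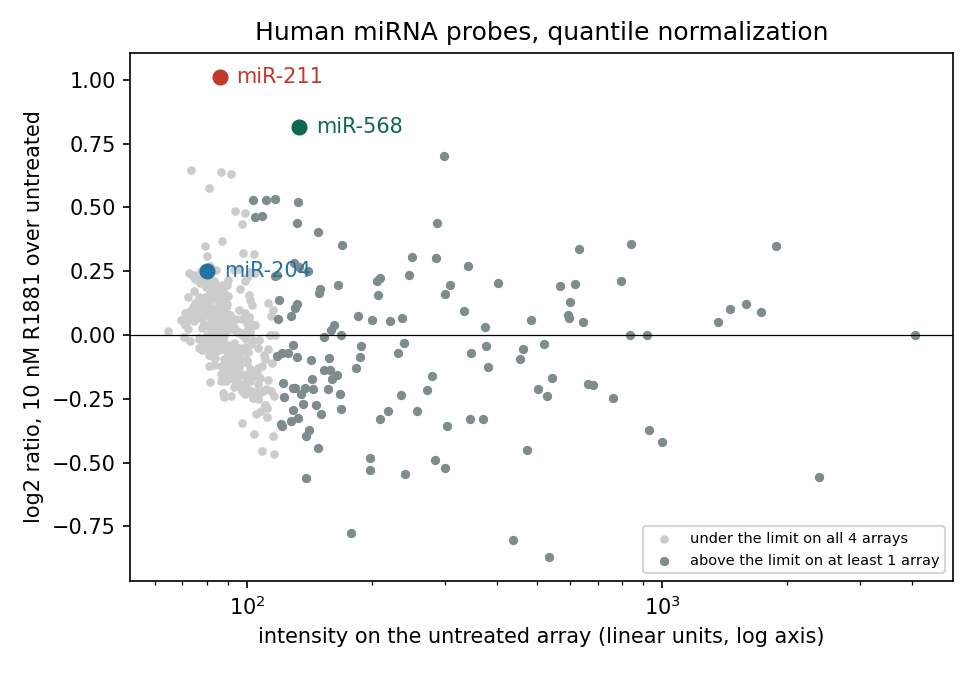
Log2 ratio of the 10 nM array over the untreated array (quantile normalization) against intensity on the untreated array (log axis) for the 455 human miRNA probes. miR-211 has the highest ratio, 1.01, at an untreated intensity of 86, among probes that were mostly under the limit on all arrays, and miR-204 lies at 0.25.

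The ratios of miR-204 fell among those of other undetected probes. They were 0.10, 0.14 and 0.25 at rising dose. Of the 319 human probes under the limit on every array, miR-204 itself among them, 48, 21 and 16 had a higher ratio at 0.1, 1 and 10 nM. Of all 455 human probes, 110 (24.2%) were higher than untreated at all 3 doses, as miR-204 was. Its mismatch partner had log2 ratios of 0.020, 0.26 and 0.18, of which the second exceeded that of the matched probe.

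With 1 array per dose, the order of the miR-211 levels among the treated arrays has no error to be judged by. Undetected probes give a description of how arrays differed near the floor. On the 319 probes the SD of the log2 difference was 0.10 for 1 nM over 0.1 nM, 0.10 for 10 nM over 0.1 nM and 0.11 for 10 nM over 1 nM. Over the untreated array it was 0.13, 0.14 and 0.17 at rising dose. The log2 difference of miR-211 for 1 nM over 0.1 nM was −0.098, that for 10 nM over 0.1 nM 0.18 and that for 10 nM over 1 nM 0.27. These include the 1 nM value, which was under the limit. The 319 probes were kept because they never passed the limit, which leaves out probes that rise, so their SD is no replicate error and no order of the treated arrays is read from it.

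Other probe classes give the background of the 1.5-fold rule. At least 1.5-fold above untreated at all 3 doses were 6 of 576 2-mismatch probes (1.04%), 3 of 223 rodent-named probes (1.35%) and 0 of 107 virus or worm probes. The corresponding number was 3 of all 455 human probes (0.659%), a smaller share than among mismatch and rodent-named probes. The counts of 2-fold higher probes at 10 nM were 0 in the mismatch, rodent-named and virus or worm classes, and they support nothing about miR-211, which was chosen for its rise.

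The size and the rank of the miR-211 ratio moved with the processing, and its sign did not. Under the 6 alternatives its log2 ratio ran from 0.66 to 0.86 at 0.1 nM, from 0.59 to 0.73 at 1 nM and from 0.85 to 1.21 at 10 nM. By mean ratio it ranked first of 136 after quantile normalization with and without background correction. With median scaling, no scaling, cyclic loess and detected-miRNA centring it ranked second, after miR-568, and on the deposited intensities it held rank 3. Its description as the miRNA with the largest rise thus holds for quantile normalization. The ratio of miR-204 at 10 nM changed sign, at −0.081 with detected-miRNA centring.

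**Figure D4:**
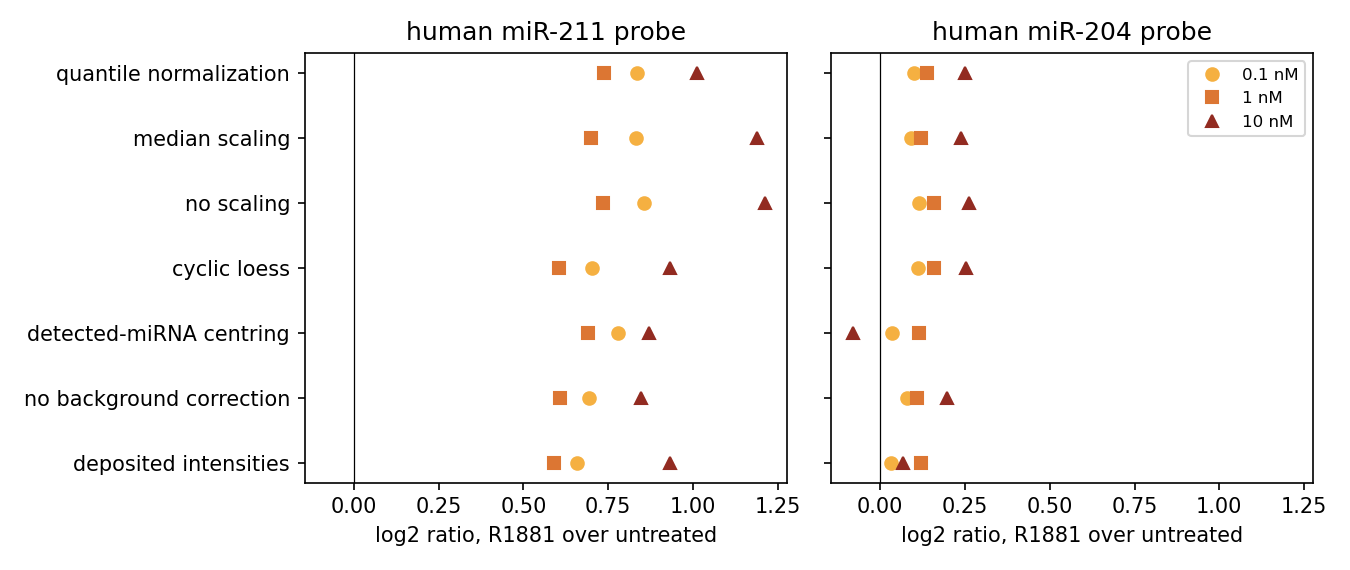
Log2 ratio of each R1881 dose over the untreated array for the human miR-211 and miR-204 probes under 7 ways of processing; each point is 1 array over the untreated array. miR-211 stays between 0.59 and 1.21, with 10 nM highest and 1 nM lowest in each row, and miR-204 between −0.081 and 0.26.

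The detected miRNAs with the dose profile nearest to miR-211 were miR-568 and, in order of likeness after it, miR-594, miR-640, miR-647 and miR-629. Likeness was the root mean square difference of the 4 centred log2 values after quantile normalization, over 4 arrays, among 135 detected human miRNAs. It was 0.076 for miR-568, from 0.15 to 0.19 for the other 4, and 0.41 for the median miRNA. All 5 carry late miRBase numbers and have no role stated here. Each read lowest on the untreated array and highest at 10 nM, and 4 of them read lower at 1 nM than at 0.1 nM, as miR-211 did.

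Mismatch probes separated these miRNAs. miR-568 read 133.5, 241.25, 227 and 288.5 from 0 to 10 nM, and its mismatch partner was brighter on every array, at 288, 353.5, 289 and 420. The partner of miR-647 was brighter than its matched probe on each array too, and that of miR-640 read 117 against 116.75 on the untreated array. The partners of miR-629 and miR-594 stayed between 78 and 80 and between 102.5 and 133.5, while the matched probes reached 180 and 662 at 10 nM. miR-211 shared this last form, with a partner at 71.5 to 79, although it was the dimmest of the 6 matched probes on the untreated array, at 86.

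**Figure D5:**
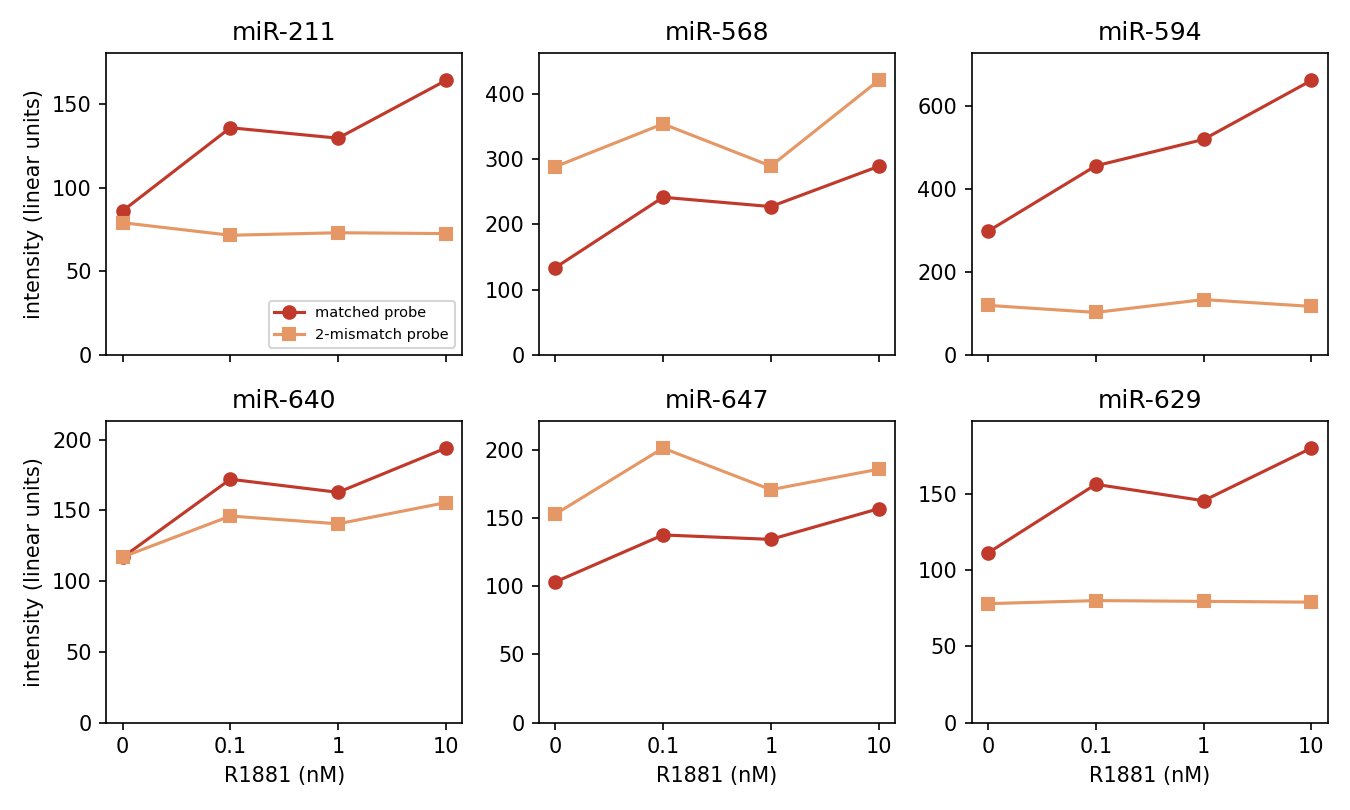
Intensity (linear units, axes from 0 and scaled per panel) of the matched and 2-mismatch probes of miR-211 and the 5 detected miRNAs with the nearest dose profile, by R1881 dose, 1 array per dose. The mismatch probe stays at 71.5 to 80 for miR-211 and miR-629 and at 102.5 to 133.5 for miR-594. It moves with the matched probe for miR-640 and lies above the matched one for miR-568 and miR-647.

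Among detected miRNAs miR-204 had closer neighbours in profile, although its own values were all under the limit. Undetected probes, among which its ratios fell, were left out of this comparison. After quantile normalization miR-615, miR-106a and miR-101 differed from it by 0.018, 0.031 and 0.033, against 0.14 for the median miRNA. This closeness depended on the scaling. With no scaling their log2 ratios at 10 nM were 0.66, 0.80 and 0.62, against 0.26 for miR-204. miR-106a, which belongs to a cluster related to miR-17-92, read 1047.5 at 10 nM and 616 without R1881. miR-101, known as a repressor of EZH2, read 296.75 at 10 nM and 205.25 without R1881. The 2 family members themselves were 0.31 apart by this measure.

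miRNAs linked to MITF and pigment cells were described from a list of 10. After quantile normalization 7 were detected and 0 were at least 1.5-fold higher at 10 nM, against 3 of all 136 (2.21%). With no scaling 2 of the 7 passed, miR-148a at 0.80 and miR-148b at 0.61, against 42 of all 136. On the lower side after quantile normalization 1 of them passed 1.5-fold, against 3 of all 136 (2.21%). That miRNA was miR-125b, with a log2 ratio of −0.80 at 10 nM (−0.45 with no scaling). miR-137 and miR-184, which are known to act on MITF or in the eye, were under the limit on every array, at 79.5 to 90 and at 80 to 93.5. The median log2 ratio of the 7 at 10 nM was −0.069, beside −0.043 for all 136. With no scaling these medians were 0.37 and 0.38.

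The ratios of eye and neural miRNAs depended on the scaling as those of all detected miRNAs did. So did those of miRNAs listed as hosted in other protein-coding genes. Of 11 eye, lens and neural miRNAs 5 were detected, with a median log2 ratio of 0.039 at 10 nM after quantile normalization and of 0.43 with no scaling. At 1.5-fold 0 of the 5 passed in either direction, against 3 of 136 (2.21%) each way. With no scaling 1 of the 5 was higher, against 42 of all 136. After quantile normalization the largest ratios were −0.23 for miR-218 and 0.22 for miR-183, which stood at 0.14 and 0.64 with no scaling. A list of 20 miRNAs was taken as hosted in protein-coding genes, as the family is, but host genes were looked up only for the family. Of these 20, 15 were detected, with a median of −0.035 after quantile normalization and of 0.47 with no scaling. At 1.5-fold 0 of the 15 passed in either direction, beside the same 2.21% each way. With no scaling 5 of the 15 were higher, against 42 of all 136, among them miR-16 at 0.95 and miR-107 at 0.82. After quantile normalization miR-26b at −0.37 and miR-335 at −0.36 had the largest ratios in size, and with no scaling they stood at 0.21 and −0.075.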

How the data were processed

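Per the labels, 10 µg of Cy3-labelled total RNA from each of 4 LAPC-4 samples was hybridized to a custom CombiMatrix array. Per the file headers, the deposited sample tables hold mean spot intensity on a linear scale, 1 value per probe name. A deposited value table of intensity minus a constant per array was used as an alternative. Its construction was inferred from the values. The scanner and image software are not stated in these sources, and the labels do not say whether samples came from separate cultures.

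Leaving out 28 2-mismatch probes at 0 on some array, 1378 probes received limma's normexp correction (offset 50), quantile normalization and a log2 transform, with limma 3.58.1 in R 4.3.3 and Python 3.11.15. The offset and a floor under dim probes can shrink ratios of dim probes, but the corrected ratios of miR-211 were the larger ones. After quantile normalization they were 0.83, 0.74 and 1.01 at rising dose, against 0.69, 0.61 and 0.85 with no background correction. Treated arrays were set against the untreated one without a test. Detection used the 95th percentile of 576 2-mismatch probes. The ratio step was tested on simulated data in which brighter probes were raised or lowered in equal number. That simulation raised no probe from the floor and had no shift in 1 direction, so it does not bear on the family's ratios. Arrays have no depth, and their number limits the precision.

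The members and lists were chosen with earlier results of these data known. The text names the family, the 5 and 3 nearest profiles among detected miRNAs, the closest sequences, miRNAs past 1.5-fold at all 3 doses, and list members past 1.5-fold at 10 nM or else the 2 largest ratios. miR-411, miR-18a*, miR-299-5p, miR-137, miR-184, miR-148a, miR-148b, miR-16, miR-107 and the marker miRNAs were added after their values were seen. Sequences are from RefSeq (GRCh38.p14). Alternatives were median scaling, no scaling, cyclic loess, detected-miRNA centring, no background correction, and other limits and thresholds. The deposited intensities with neither step, and the limit of the value table, were added after seeing the data.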

Additional observations from a re-analysis of the deposited data

How the results depend on the processing

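The log2 ratio of miR-211 stayed above 0 at all 3 doses under each of the 6 alternatives. This supports nothing further, since miR-211 was chosen for its rise on these same arrays. At 0.1 nM the ratio was 0.70 with cyclic loess, 0.69 with no background correction and 0.66 with neither correction nor scaling, against 0.83. At 1 nM it was 0.61, 0.61 and 0.59 under the same alternatives, against 0.74. At 10 nM it was 1.19 with median scaling, 1.21 with no scaling, 0.87 with detected-miRNA centring and 0.85 with no background correction, against 1.01. For miR-204 at 10 nM it was −0.081 with detected-miRNA centring and 0.066 with neither correction nor scaling, against 0.25. Of 36 such values 24 moved by less than 0.10, the mean SD between treated arrays on undetected probes. The cause was not tested.

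miR-211 exceeded the limit on 2 arrays, on 3 with a limit at percentile 90 of mismatch probes, on 0 with a limit at percentile 99 of mismatch probes, on 1 with virus and worm probes, and on 1 with the limit of the value table. miR-204 exceeded none of these limits. The sample tables give 8 values for the 2 human probes and the deposited value table gives 1, since it blanks dim probes.

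The count of miRNAs at least 1.5-fold higher at 10 nM was 3, and 40 with median scaling, 42 with no scaling, 30 with neither correction nor scaling, 5 with detected-miRNA centring and 6 with no filter. At 1 nM it was 3, and 7, 10, 9 and 7 under the first 4 of these. At 0.1 nM it was 2, and 5 with median scaling or no scaling. At a threshold of 1.3-fold the counts were 7, 12 and 12 at rising dose and 5 at all 3 doses, and at 2-fold 0, 0, 1 and 0. Requiring detection on all 4 arrays left 1 at 0.1 nM and 1 at all 3 doses, and removes miR-211. No paired analysis was possible because each dose has 1 array and the labels give no replicate numbers. With 1 array per dose, a left-out array removes its dose.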
